A study of Mus musculus with 2 samples.

Results

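Foxo3, a forkhead transcription factor of red cell maturation, and 9 genes of autophagy and mitochondrial clearance were examined for Gata1 binding in early red cells of the mouse. Gata1 is a DNA-binding zinc finger protein on which red cell formation depends. The genes were chosen by name, with earlier results of these data known (Foxo3, Ulk1, Bnip3l, Map1lc3b, Gabarapl1, Gabarapl2, Atg4d, Atg10, Atg7 and Sqstm1). A Gata1 peak was assigned to a gene when its midpoint fell inside the gene or no more than 50 kb from one of its ends. This gave 10 of 21792 protein-coding genes and 14 of 4135 peaks, each peak falling to 1 of the 10 genes. The peaks came from chromatin immunoprecipitation and sequencing of 1 library, prepared from embryonic stem cells that had been differentiated towards blood for 5 days as embryoid bodies. Cells positive for both a Runx1-ires-GFP and a Gata1::mCherry reporter were sorted and pooled over several sorts, so the gate itself used a Gata1 reporter. The series describes them as primitive erythroid, the first red cells of the embryo. A second library was a control, titled as input and carrying a rabbit IgG in its antibody field. Whether the peaks were called against it is not given, and its own signal was not analysed here.

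Autophagy encloses cell contents in a double membrane and delivers them to the lysosome. A kinase complex around Ulk1 starts the membrane, a conjugation cascade that includes Atg7 and Atg10 drives the lipidation of Atg8-family proteins (Map1lc3b, Gabarapl1, Gabarapl2), and Atg4 proteases process those proteins. Receptors such as Sqstm1 (p62) and Bnip3l (Nix) tie cargo to the Atg8-family proteins. Maturing red cells use this route to remove their mitochondria, for which Bnip3l is the best known receptor, and Foxo3 is known as an activator of autophagy genes in red cells.

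Of the 10 genes, 8 had a Gata1 peak in the gene or within 50 kb, against 32.0% of all protein-coding genes. A peak lay inside the gene for 4 of them (Foxo3, Ulk1, Bnip3l and Atg10), beside 9.35% of all protein-coding genes. A further peak lay 0.039 kb below Atg4d, which placed it on that gene's promoter. Map1lc3b, Gabarapl2 and Sqstm1 had peaks only beside the gene, each inside or closer to another gene, and no peak was called within 50 kb of Gabarapl1 or Atg7. The deposited list gives positions only, so each site is either called or not called, with no measure of strength. With 1 library there is no replicate, no test between samples was possible, and the depth is unknown, so for a gene without a peak it can only be said that none was called.

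All 10 genes listed as primitive erythroid markers had a peak in the gene or within 50 kb, beside 32.0% of all protein-coding genes. The counts were 2 of 6 (33.3%) for endothelial and 3 of 6 (50%) for myeloid markers, which is close to and above that share. A peak near a marker shows where Gata1 was called and not whether the gene was expressed, so these counts do not check which cells the sort held.

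Atg4d encodes a protease that processes Atg8-family proteins. Its nearest peak, on chromosome 9 from 21264966 to 21265365, covered all 300 bases of the RefSeq promoter window, which runs from 250 bases before to 50 after the annotated start. The midpoint was 0.119 kb upstream of that start. The stretch of this promoter that lies before the gene model is shown because the Atg4d window was the only 1 of the 9 promoter windows found for the 10 genes that a peak overlapped. The sequence is from RefSeq, GRCm38.p6, plus strand, chr9:21265035-21265204, 5′ to 3′, with the GATA letters in capitals.

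Atg4d promoter: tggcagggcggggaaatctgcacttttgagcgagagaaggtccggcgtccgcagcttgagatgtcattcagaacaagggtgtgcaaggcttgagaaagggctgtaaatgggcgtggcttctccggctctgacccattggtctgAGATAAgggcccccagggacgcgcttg

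The AGATAA lay at 21265178 to 21265183, starting 107 bases before the annotated start, and its centre was 14 bases from the midpoint of the peak. The letters searched for, on both strands, were GATA preceded by A or T and followed by A or G, the core sequence that GATA factors bind. At least 1 match was present in 29.8% of all 32851 RefSeq promoter windows of this length, in 43.6% of the 541 windows that a peak overlapped and in 60.3% of the 121 windows that lay wholly inside a peak. Among the 9 promoter windows examined here (Foxo3, Ulk1, Map1lc3b, Gabarapl1, Gabarapl2, Atg4d, Atg10, Atg7 and Sqstm1), only that of Atg4d held a match. The start used for Atg7, at 114671096, lies inside the gene span, which begins at 114643127. The sequence at that outer end of Atg7 was not examined. The Atg4d match is a description of the sequence and was not tested as a binding site.

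The same windows were searched for letters of factors that often act with Gata1. CACCC, a core that Klf factors recognise, occurred 3 times in the Atg4d window, 3 times in that of Ulk1, 4 times in that of Gabarapl1, and once each in those of Map1lc3b and Sqstm1, counting both strands. It was present in 57.5% of all windows. The E-box CANNTG was found in the windows of Map1lc3b, Gabarapl1, Atg7 and Sqstm1, and in 72.3% of all windows. The forkhead letters GTAAACA were in none of the 9 windows and in 3.65% of all windows. None of these matches overlapped another in the 9 windows.

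**Figure D1:**
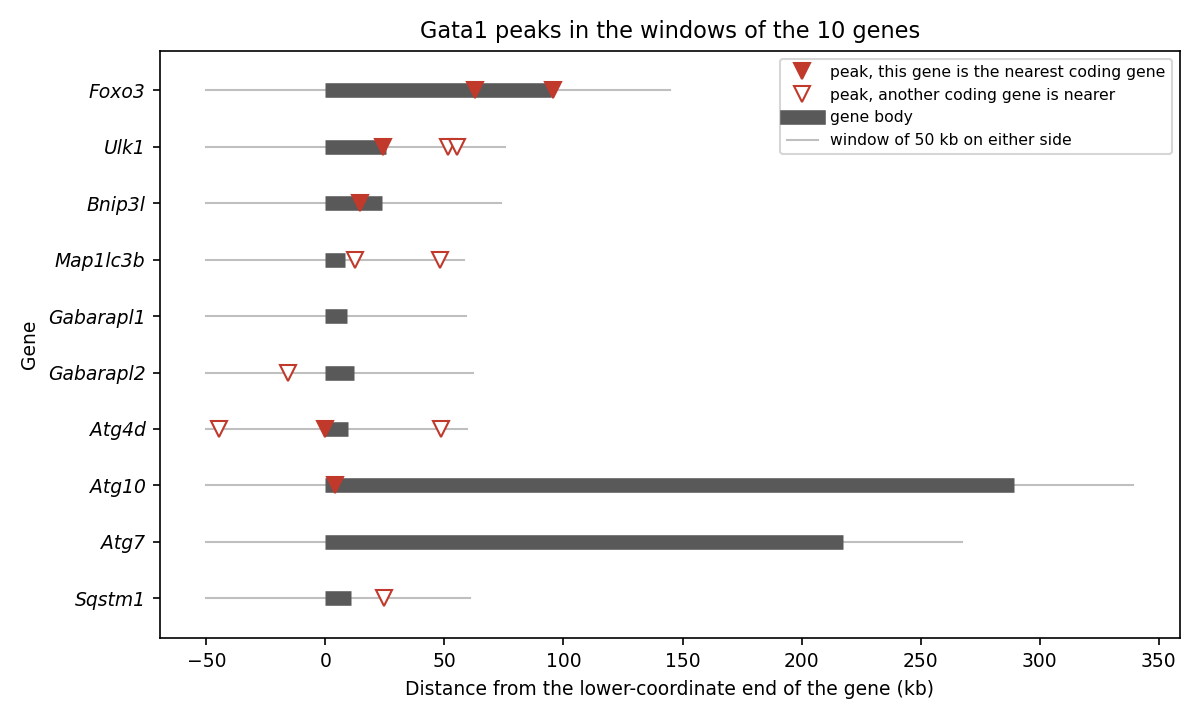
Positions of the 14 Gata1 peaks in the windows of the 10 genes. The horizontal axis is the distance in kb from the lower-coordinate end of each gene, the vertical axis lists the genes, thick bars are gene bodies and thin lines the 50 kb on either side. Filled triangles mark the 6 peaks for which the gene of that row was the nearest protein-coding gene, and open triangles the 8 peaks that were nearer to another; the rows of Gabarapl1 and Atg7 are empty.

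Foxo3 had 2 peaks, and both were nearer to it than to any other protein-coding gene. The gene spans 94.9 kb on chromosome 10, from 42181845 to 42276695, and is read from the minus strand. The first peak, at 42277274 to 42277673, lay outside the gene 0.779 kb upstream of the annotated start. The second, at 42244414 to 42244813, lay inside the gene 32.1 kb downstream of the start. The peaks were 32.9 kb apart. The next protein-coding gene, Afg1l, was 35.1 kb from the first and 68.0 kb from the second. At least 2 peaks in the window were found for 10.9% of all protein-coding genes.

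Ulk1, encoding the kinase that starts autophagosome formation, had 3 peaks in its window, a number reached by 3.35% of all protein-coding genes. The gene lies on the minus strand of chromosome 5, from 110784489 to 110810120. The peak at 110808701 to 110809100 was inside the gene, 1.18 kb downstream of the annotated start. The other 2 lay upstream of Ulk1 in its neighbours. The peak at 110835941 to 110836340 was inside Hscb, which encodes a co-chaperone of iron-sulphur cluster assembly, 26.1 kb from the Ulk1 start. The peak at 110839709 to 110840108 lay over the promoter of Chek2, a DNA damage checkpoint kinase gene. Its lower-coordinate side also overlapped the end of Hscb, at 110839793. The peak covered all 300 bases of the Chek2 promoter window, in which no GATA letters were found. Its midpoint was 29.8 kb from the Ulk1 start, and the Hscb and Chek2 peaks were 3.77 kb apart.

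The enzymes of the conjugation cascade divided into Atg10 with a peak and Atg7 without. Atg10, the E2-like enzyme that attaches Atg12 to Atg5, spans 289 kb on chromosome 13, from 90935348 to 91224725, on the minus strand. Its peak at 90939258 to 90939657 lay inside the gene, 4.11 kb from the lower-coordinate end and 285 kb downstream of the annotated start, so it was close to the far end of the gene. Atg10 was the nearest protein-coding gene, and the ribosomal protein gene Rps23 lay 14.7 kb away. Atg7, the E1-like enzyme of the cascade, spans 217 kb on chromosome 6, from 114643127 to 114860604. It had no peak inside the gene or within 50 kb, and its nearest peak was 119 kb away. Among the 990 protein-coding genes of 200 kb or more, 34.8% had a peak in the gene or within 50 kb and 26.6% had a peak inside the gene, so the empty Atg7 window was the more common outcome for genes of that length.

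Beside the promoter peak, Atg4d had 2 more distant peaks on chromosome 9. They were 44.9 kb below the gene, at 21220142 to 21220541, and 38.8 kb above it, at 21313429 to 21313828. Neither lay in a gene. The first was nearest to Pde4a, a phosphodiesterase gene, at 7.09 kb, and the second to Ap1m2, an adaptor protein gene, at 1.28 kb. The 110 kb window of Atg4d also reached Keap1, S1pr5, Kri1, Cdkn2d and Slc44a2, and the promoter peak fell in the 50 kb windows of 6 protein-coding genes, the most of any of the 14 peaks.

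The 3 Atg8-family genes had no peak inside the gene. Map1lc3b (LC3B), which marks autophagosome membranes, lies on chromosome 8 from 121590438 to 121598760. It had 2 peaks, at 121602863 to 121603262 and at 121638530 to 121638929, the first of them 4.30 kb above the gene. Both were inside Zcchc14, whose annotated span overlaps the end of Map1lc3b by 64 bases. Measured from the Map1lc3b start, they lay 12.6 and 48.3 kb downstream.

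Gabarapl2 (GATE-16), on chromosome 8 from 111940703 to 111952915, had 1 peak at 111924979 to 111925378. It lay 15.5 kb upstream of the annotated start and inside both Tmem231, which encodes a membrane protein of the cilium base, and the noncoding gene Gm36531. Gabarapl1, on chromosome 6 from 129533192 to 129542331, was the member farthest from any peak, with the nearest at 688 kb. For 81.5% of all protein-coding genes, the nearest peak was as close or closer. Its window also held Olr1, Tmem52b, Klre1 and Klrd1, none of which had a peak within 50 kb.

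The cargo receptors differed in where their peaks lay. Bnip3l, the receptor on the outer mitochondrial membrane, lies on chromosome 14 from 66985238 to 67008877. It had 1 peak, at 66999575 to 66999974, inside the gene and 14.5 and 9.10 kb from its lower-coordinate and higher-coordinate ends. The next protein-coding gene, Ppp2r2a, was 14.3 kb from it. Sqstm1, which binds ubiquitin-tagged cargo, lies on the minus strand of chromosome 11 from 50200152 to 50210820. Its peak at 50224776 to 50225175 was 14.2 kb upstream of the annotated start. This peak lay inside the noncoding gene Gm36556 and overlapped promoter windows of Gm36556 by 4 and 38 bases. It was 0.359 kb from Mgat4b, which encodes a glycosyltransferase.

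In all, 6 of the 14 peaks had a member as the nearest protein-coding gene: both at Foxo3, and 1 each at Ulk1, Bnip3l, Atg4d and Atg10. The other 8 were nearer to a neighbour, and 5 of these lay inside another protein-coding gene. Over all pairs of a peak and a protein-coding gene within 50 kb, the gene was the nearest in 36.7% of 10432 pairs. Each of the 14 peaks fell in the windows of between 1 and 6 protein-coding genes, with a median of 4, so most could be assigned to several genes by the same rule. Position does not show which gene a peak acts on.

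Of the 13 peaks at genes with an annotated start in the promoter table, 7 lay upstream and 6 downstream of it, and 3 were within 2 kb of it (Foxo3, Ulk1 and Atg4d). The distance from gene to nearest peak had a median of 2.17 kb over the 10 genes and 135 kb over all protein-coding genes. Median gene length differed little between them, at 17.9 and 17.2 kb. Of the 10 genes, 2 were 200 kb or more, beside 990 of all 21792 protein-coding genes. Of the 7 members under 30 kb, 6 had a peak within 50 kb and 2 had a peak inside the gene, where 30.2% and 5.06% of all protein-coding genes under 30 kb did. The 10 genes had a mean of 1.40 peaks per window, against 0.479 over all protein-coding genes. Per Mb of window, the values were 8.23 and 3.23. The count of 8 genes with a peak within 50 kb became 5 with 1 kb, 6 with 10 kb and 8 with 100 kb, beside 11.3%, 16.6% and 43.9% of all protein-coding genes. When each peak was given to its nearest protein-coding gene alone, 5 of the 10 genes kept a peak within 50 kb, beside 13.8% of all protein-coding genes. Since the genes were chosen with results of these data known, no test was made of these differences.

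**Figure D2:**
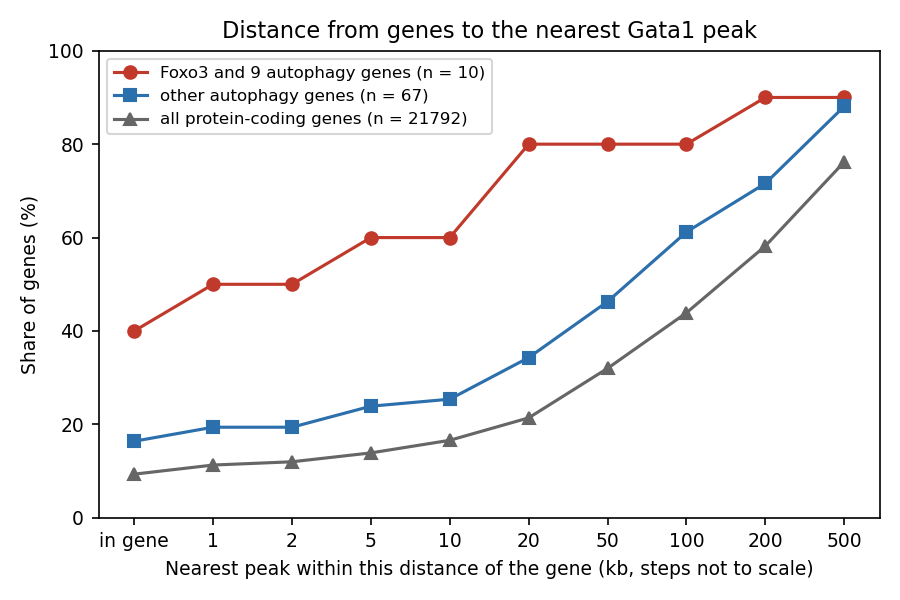
Share of genes (vertical axis, %) whose nearest Gata1 peak lay inside the gene or within the distance on the horizontal axis (kb, steps not to scale), for Foxo3 and the 9 autophagy genes, 67 other autophagy genes and all 21792 protein-coding genes. Inside the gene the shares were 40%, 16.4% and 9.35%, and within 50 kb they were 80%, 46.3% and 32.0%. The lines of the Foxo3 set and of the other autophagy genes lie close together at 500 kb. Both sets were chosen with earlier results of these data known, and the differences were not tested.

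The rest of the pathway was described with a list of 67 other autophagy genes, all of which matched the gene table. Of these, 31 had a peak inside the gene or within 50 kb (46.3%, beside 32.0% of all protein-coding genes), and inside the gene for 11 (16.4%, beside 9.35%). With 10 kb the count was 17 (25.4%, beside 16.6% of all protein-coding genes). The median distance to the nearest peak was 53.7 kb, beside 135 kb over all protein-coding genes. This list and the Foxo3 set were both chosen with earlier results of these data known, and they were not tested against each other.

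The steps hold between 2 and 12 genes, and their counts are given beside the shares over all protein-coding genes, 32.0% within 50 kb and 9.35% inside the gene; no difference between steps was tested. Within 50 kb, a peak was found for 1 of the 4 listed genes of the ULK complex, 4 of 7 of the lipid kinase complex, 3 of 10 of membrane supply and 3 of 8 of conjugation. None of these listed genes had a peak inside the gene. Ulk1 and Atg10, described above, did, but they belong to the set chosen with earlier results known. Atg101, a subunit of the Ulk1 kinase complex, had 3 peaks, the farthest 48.8 kb away and each nearer to another gene, and Ulk2, Atg13 and Rb1cc1 of the same complex had none within 50 kb. Becn1 and Atg14, of the lipid kinase complex that acts next, had peaks no nearer than 13.5 and 18.3 kb. Atg2a, a lipid transfer protein gene, had 3 peaks, the nearest at 13.1 kb and all nearer to Ehd1. Atg9b, a lipid scramblase gene, had 1 peak at 2.74 kb, inside Abcb8. In the conjugation group, Atg16l2 had a peak at 8.65 kb and Atg4b, another Atg4 protease gene, had a peak at 12.7 kb inside Thap4. Of the other protease genes, Atg4a and Atg4c had none within 100 kb, so a promoter peak was found for Atg4d alone among the 4 Atg4 genes.

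Gabarap, a further Atg8-family gene, had a peak 0.265 kb upstream of its start, on chromosome 11 from 69990905 to 69991304, and another at 11.4 kb inside Elp5. Map1lc3a had none within 100 kb. The part of the Gabarap promoter window that lies inside the peak is shown for comparison with Atg4d (RefSeq, GRCm38.p6, plus strand, chr11:69991120-69991304, 5′ to 3′). It covers the side of the peak towards the gene and contains none of the GATA letters, so it has no capitals. The remainder of that peak was not examined for sequence.

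Gabarap promoter: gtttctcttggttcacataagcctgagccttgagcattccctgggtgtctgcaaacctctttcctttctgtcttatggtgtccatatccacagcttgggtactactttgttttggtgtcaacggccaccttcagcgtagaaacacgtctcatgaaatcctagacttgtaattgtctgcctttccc

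Of the 6 other receptor genes, 1 had a peak within 50 kb (16.7%, beside 32.0% of all protein-coding genes), and for this gene, Wdfy3, it lay inside the gene. Of the 9 other mitochondrial clearance genes, 4 had a peak within 50 kb (44.4%, beside the same 32.0%) and 2 had a peak inside the gene. Pink1, a kinase gene of mitochondrial quality control, had 1 peak inside the gene. Bcl2l13, a mitochondrial receptor gene, had 2 peaks at 21.8 and 23.0 kb, both inside Bid. Bnip3, the closest relative of Bnip3l, had none, with its nearest at 325 kb.

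Of the 9 lysosome and fusion genes, 6 had a peak within 50 kb and 5 had a peak inside the gene, beside 32.0% and 9.35% of all protein-coding genes. Vamp8, a SNARE of autophagosome fusion, had 2 peaks inside the gene, at 0.840 and 3.09 kb from its start. Rab7, a small GTPase of late endosomes, had 1 inside the gene and 1 at 20.3 kb. Lamp1, Epg5 and Plekhm1 had 1 peak each inside the gene, by peak midpoint. The Lamp1 peak, on chromosome 8 from 13158981 to 13159380, also overlapped 230 bases of the Lamp1 promoter window. The 180 bases of this peak that lie before the gene model contained none of the GATA letters. No sequence result is given for the rest of this peak, which includes its midpoint.

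Among the 12 regulators, 8 had a peak within 50 kb and 3 had a peak inside the gene, beside the same shares of 32.0% and 9.35%. Tsc1, which restrains the growth kinase mTOR, had 4 peaks, of which 3 lay at 36.3 to 42.8 kb and were nearest to Gfi1b, a transcription factor gene of red cells, and 1 lay in Ak8. Rptor, an mTOR partner, had 3 peaks, with 1 inside the gene 0.728 kb from its start and the other 2 in Chmp6. Tfeb, which activates lysosome and autophagy genes, had a peak inside the gene. Of the Foxo factors listed beside Foxo3, Foxo4 had its nearest peak 0.188 kb from the gene and Foxo1 had its nearest at 71.8 kb.

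**Figure D3:**
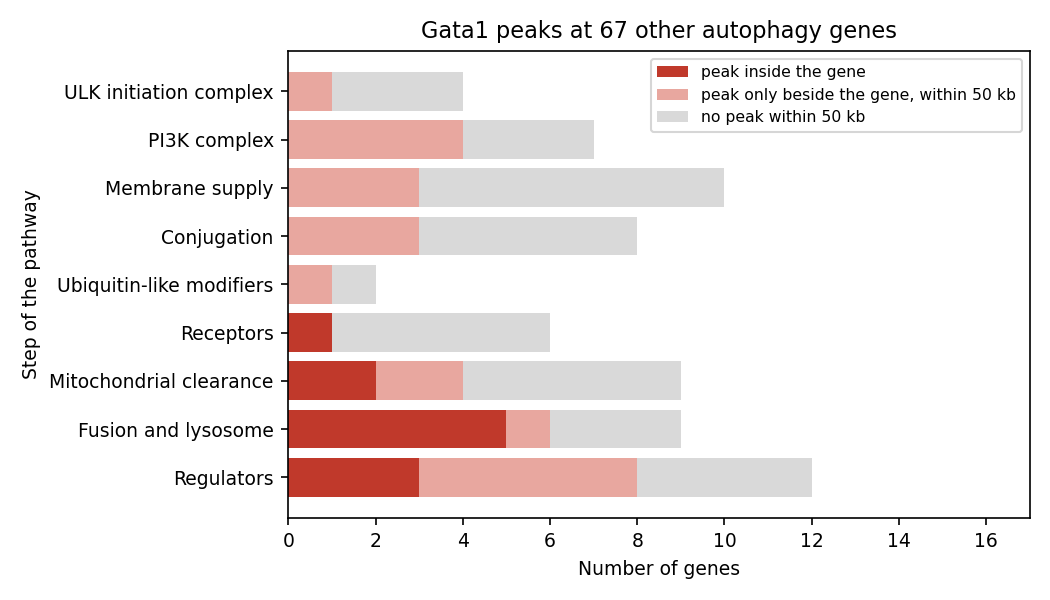
Number of genes (horizontal axis) with a Gata1 peak inside the gene, only beside it within 50 kb, or not within 50 kb, for 67 other autophagy genes grouped by step of the pathway (vertical axis). The 5 upper bars, from the ULK complex to the ubiquitin-like modifiers, hold no gene with a peak inside it, and the bar for fusion and lysosome holds 5.

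Counts for genes of other red cell functions are given beside the 32.0% of all protein-coding genes with a peak within 50 kb and the 9.35% with a peak inside the gene. All 8 haem synthesis genes had a peak within 50 kb and inside the gene. Of 17 antioxidant genes, 12 had a peak within 50 kb and 7 had a peak inside the gene. The 10 genes described here, with 8 and 4, were not tested against either list.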

How the data were processed

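The authors deposited 1 list of peak positions of build mm10 (GRCm38) for the Gata1 library, and no count, score, fold or p-value is attached to a peak. Bowtie2 2.0.6 and MACS2 2.0.10 were used, per the submitters' processing notes. The sources used here do not give their settings, the threshold, the use of the control or the step that set every interval to 400 bp. Genes came from a RefSeq table of GRCm38.p6. Entries without a chromosome were left out, as were 357 entries that start below 3 Mb outside the Y and mitochondrial chromosomes. That table gives no exons or strand, so introns and exons were not separated. Strand and start came from RefSeq promoter windows of 300 bases, which matched 9 of the 10 genes. Bnip3l was not matched. All windows were counted by peak midpoint with Python 3.11.15, numpy 2.4.6 and pandas 2.3.3, and the assignment was tested on simulated data against bedtools 2.31.1.

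No statistical test was made, as 1 library has no replicate. Alternatives were windows of 1, 10 and 100 kb, any overlap, the nearest gene only and runs of peaks counted once. The 10 genes, the lists and the rules were chosen with earlier results of these data known. All 10 genes were named, and from the wider list up to 2 genes per step with the most peaks, ties going to the nearer. Genes holding a peak of the 10 windows were also named. Pde4a, Ap1m2, Mgat4b, Rps23, Afg1l, Ppp2r2a, the neighbours of Atg4d and Gabarapl1, Ehd1, Abcb8, Thap4, Elp5, Bid, Gfi1b, Ak8, Chmp6, Ulk2, Atg13, Rb1cc1, Atg4a, Atg4c, Map1lc3a, Pink1, Bnip3, Lamp1, Epg5, Plekhm1, Tfeb, Foxo1 and Foxo4 were named after their values were seen. A gene that the rule named is not reported here.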

Additional observations from a re-analysis of the deposited data

How the results depend on the processing

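The number of the 10 genes with a peak was 8 and stayed within 1.5 times of that with 10 kb, 100 kb and any overlap. It was 5 with a window of 1 kb, and 5 when each peak went to its nearest protein-coding gene only. The 14 distinct peaks became 7 with 10 kb. Of the 67 other autophagy genes, 31 with a peak became 17 with 10 kb and 15 with the nearest protein-coding gene only. The shares of all protein-coding genes at these 2 settings were 16.6% and 13.8%. These settings leave fewer peaks per gene by construction. The other alternatives run stayed within 1.5 times, with 13 groups of peaks when runs within 10 kb were counted once. The count of genes with a peak inside was 4, and 5 with any overlap of the interval, which added Atg4d. A stricter peak threshold could not be tried without scores, and depth could not be examined. No paired analysis was possible because there is 1 ChIP library and no test between groups.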

Other observations

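Some peaks lay beyond the 50 kb windows. Atg10 had peaks 60.6 kb above and 91.0 kb below the gene, and it was the nearest protein-coding gene to the first of these, on chromosome 13 at 91285079 to 91285478. With a 100 kb window, Atg10 therefore had 3 peaks and Atg4d had 4, while Atg7 and Gabarapl1 still had none. The nearest peak to Atg7 was on chromosome 6 at 114979676 to 114980075, beyond the neighbouring Vgll4, which begins 0.017 kb above Atg7 and spans 109 kb. These peaks were looked up after the windows had been counted.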
